A study of Homo sapiens with 4 samples.

Results

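The miR-191/miR-425 cluster is a pair of microRNA (miRNA) hairpins in the gene DALRD3. Its 4 mature arms are hsa-miR-191-5p, hsa-miR-191-3p, hsa-miR-425-5p and hsa-miR-425-3p, written without the species prefix from here on. The arms were taken by name, and 4 of 4 were listed in all 4 libraries, among 1882 miRNA names common to the files. Small RNA was sequenced from 2 established human colorectal cancer lines, HT29 and HCT15. Each line was sampled as spheres, labelled as cancer stem cells derived from spheres, and as parental cells. Spheres of both lines grew in DMEM-F12 with N2 Plus supplement, bFGF, EGF and penicillin-streptomycin. Parental HT29 cells grew in DMEM and parental HCT15 cells in RPMI, each with fetal bovine serum and penicillin-streptomycin. Medium, serum and culture form therefore differed together between spheres and parental cells and cannot be told apart. Each line and culture had 1 library, so a difference within a line has no replicate check. Nothing in the labels says that a culture was repeated.

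A miRNA hairpin is cut out of its primary transcript by Drosha and trimmed by Dicer to a short duplex of a 5p and a 3p arm. One arm of the duplex, the guide, is usually kept by an Argonaute protein and directs it to messenger RNAs through its seed, bases 2 to 8. The other arm is mostly degraded, so the ratio of 5p to 3p reads is used as a measure of which arm is retained. Retention itself was not measured here. Hairpins of one transcript are made together, and their guides need not accumulate to the same level. miR-191-5p is reported as raised in several solid tumours and is widely used as a reference RNA for small RNA quantification. In breast cancer cells the cluster is known as a target of oestrogen receptor alpha.

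In GENCODE 29 (GRCh38), MIR191 lies on chromosome 3 from 49020618 to 49020709 and MIR425 from 49020148 to 49020234, both on the minus strand. A gap of 383 bases separates them. Of the annotated DALRD3 transcripts, 4 span each hairpin, and in those 4 the hairpin is intronic. DALRD3 itself runs from 49015488 to 49022293 on the minus strand, so MIR191 precedes MIR425 in the direction of transcription. RefSeq (GRCh38.p14) gave a mature sequence for 3 of the 4 arms. They are shown because the results turn on how reads divide between the arms, and the capitals mark the seed.
miR-191-5p: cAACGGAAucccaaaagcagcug
miR-191-3p: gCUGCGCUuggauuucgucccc
miR-425-3p: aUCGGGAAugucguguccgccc
The seeds of these 3 arms differ from one another, and 0 other mature miRNAs in the RefSeq table share one of them. The MIR191 hairpin, chr3:49020618-49020709 on the minus strand, is shown with both arms in capitals. Its 5p arm occupies bases 16 to 38 and its 3p arm bases 58 to 79.
MIR191 hairpin: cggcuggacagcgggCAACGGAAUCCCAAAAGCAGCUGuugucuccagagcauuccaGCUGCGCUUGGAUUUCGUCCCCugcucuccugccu

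Listed miRNA reads totalled 12794274 in HT29 spheres and 5806540 in HT29 parental cells. HCT15 was deposited as RPKM, from which about 2318614 reads were inferred in spheres and 3185223 in parental cells. Levels below are in CPM, each arm's share of listed miRNA reads scaled to counts per 1000000, and the 3 arms with a RefSeq sequence are 22 or 23 bases long. Intervals are 95% intervals and cover counting error only. They leave out variation between cultures and between libraries, and reads carry no molecular identifiers. Of 6 miRNAs of intestinal epithelium, 6 were detected in every library. Their summed level was 214179 CPM in HT29 spheres and 141900 CPM in HT29 parental cells, against 14830 and 17215 CPM in the same cultures of HCT15. Most of the HT29 sums was miR-192-5p, at 157860 CPM in spheres and 92120 CPM in parental cells. Of the 6, miR-375 alone was higher in HCT15, at 7560 CPM in spheres and 10467 CPM in parental cells. In HT29 it was at 2424 and 896 CPM. Markers of stroma, blood cells and liver summed to at most 20.8 CPM per list and library, and miR-223-3p, a myeloid miRNA, was at 0 throughout. The muscle miRNA miR-1 was at 1156 CPM in HT29 spheres and 165 CPM in HT29 parental cells, and at 0 in both HCT15 libraries. The other muscle marker, miR-133a, was at 2.74 CPM in HT29 spheres, 0.69 CPM in HT29 parental cells and 0 in both HCT15 libraries. The part of these markers in the cluster's ratios was not tested.

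The guide arms of the cluster were abundant in both lines, but not the same guide. miR-191-5p was the leading arm in both HCT15 libraries and in HT29 spheres, and miR-425-5p in HT29 parental cells. The 4 arms together made up 0.417% of reads in HT29 spheres and 1.07% in HT29 parental cells. They made up 4.01% in HCT15 spheres and 4.83% in HCT15 parental cells. The share was lower in spheres than in parental cells of each line and higher in HCT15 than in HT29. The plot of levels by library shows the 4 arms side by side.

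**Figure D1:**
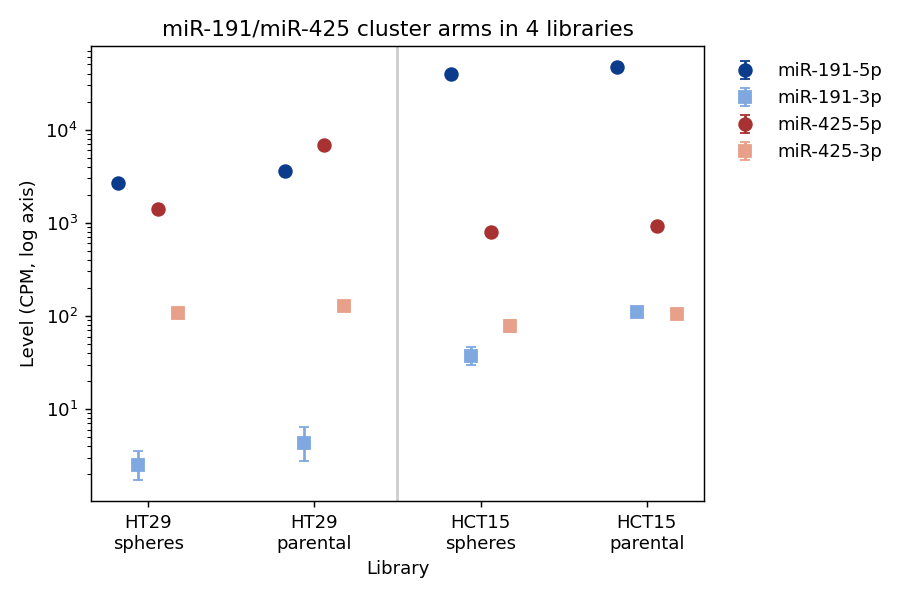
Level of each arm of the miR-191/miR-425 cluster (CPM, log axis) in the 4 libraries, with exact Poisson 95% intervals, which are smaller than the symbols for most points. miR-191-5p sits at 39188 and 47175 CPM in HCT15 spheres and parental cells, whereas in HT29 miR-425-5p is above it in parental cells (6913 CPM) and below it in spheres (1408 CPM).

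miR-191-5p had 33908 reads, or 2650.2 CPM, in HT29 spheres and 21074 reads, or 3629 CPM, in HT29 parental cells. In HCT15 it had 90861 reads, or 39188 CPM, in spheres and 150263 reads, or 47175 CPM, in parental cells. It ranked 44th of the 1058 detected miRNAs in HT29 spheres, 51st of 977 in HT29 parental cells, and 7th in both HCT15 libraries. Its level was thus much more alike between the cultures of a line than between the lines. The HCT15 level was 14.8 times the HT29 level in spheres and 13.0 times in parental cells. HT29 was deposited as read counts and HCT15 as RPKM, and no test was made between the lines. In abundance it stood next to miR-103a-3p (2803 CPM) and miR-146a-5p (2454 CPM) in HT29 spheres, and next to miR-222-3p (3656 CPM) and miR-19b-3p (3519.7 CPM) in HT29 parental cells. In HCT15 its upper neighbour was miR-92a-3p, at 39687 CPM in spheres and 53916 CPM in parental cells. Its lower neighbour there was miR-371a-5p at 38180.1 CPM in spheres and let-7a-5p at 43604 CPM in parental cells.

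miR-191-3p, the other arm of that hairpin, had 32 reads in HT29 spheres and 25 in HT29 parental cells, or 2.50 CPM (interval 1.71 to 3.53) and 4.31 CPM (interval 2.79 to 6.36). In HCT15 it had 86 reads in spheres and 349 in parental cells, or 37.1 CPM (interval 29.7 to 45.8) and 109.6 CPM (interval 98.4 to 122). The HT29 intervals overlap, which does not decide whether the CPM of the HT29 cultures differed, whereas the HCT15 intervals are apart.

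miR-425-5p had 18012 reads, or 1408 CPM, in HT29 spheres and 40140 reads, or 6913 CPM, in HT29 parental cells. In HCT15 it had 1836 reads, or 792 CPM, in spheres and 2919 reads, or 916 CPM, in parental cells. HT29 parental cells stand above the other 3 libraries. It ranked 63rd in HT29 spheres and 35th in HT29 parental cells, and 76th and 74th in HCT15 spheres and parental cells. Its neighbours in abundance were miR-106a-5p (1459.6 CPM) and miR-18b-5p (1379.8 CPM) in HT29 spheres, and miR-29b-3p (7022 CPM) and miR-18b-5p (6380.0 CPM) in HT29 parental cells. In HCT15 they were miR-30c-5p (798 CPM) and miR-181d (785 CPM) in spheres, and miR-141-5p (958 CPM) and miR-345-5p (888 CPM) in parental cells.

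miR-425-3p had 1390 reads, or 109 CPM, in HT29 spheres and 746 reads, or 128 CPM, in HT29 parental cells. In HCT15 it had 180 reads, or 77.6 CPM, in spheres and 336 reads, or 105 CPM, in parental cells. It was the arm that varied least, with 4 levels within 77.6 to 128 CPM, while the 5p arm of the same hairpin spanned 792 to 6913 CPM.

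In HT29, miR-425-5p was lower in spheres and the other 3 arms were within 0.31 of 0 on the log2 scale. The log2 ratio of spheres over parental cells, after TMM scaling, was -1.74 for miR-425-5p (interval -1.77 to -1.72), which is 3.34-fold lower. For miR-191-5p it was 0.10 (interval 0.08 to 0.13) and for miR-425-3p 0.31 (interval 0.18 to 0.44). For miR-191-3p it was -0.21, with an interval of -1.03 to 0.59 that includes 0. Across the 378 miRNAs that reached 10 CPM in 2 or more libraries, 17.5% were at least 2-fold lower in HT29 spheres and 14.3% at least 2-fold higher. Of the 4 arms, 1 was at least 2-fold lower, and 0 were at least 2-fold higher. With 4 arms, which share 2 hairpins, that count is not read as a difference from the background share. The median ratio was -0.056 for the 4 arms and -0.02 for all 378 miRNAs. miR-191-3p is among the 378 through its HCT15 levels.

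In HCT15 the scarce arm of miR-191 was lower in spheres, and both guides were close to their parental level. The log2 ratio was -1.20 for miR-191-3p (interval -1.57 to -0.87), 0.08 for miR-191-5p (interval 0.07 to 0.09) and 0.14 for miR-425-5p (interval 0.05 to 0.22). For miR-425-3p it was -0.09, with an interval of -0.36 to 0.17. At least 2-fold lower in HCT15 spheres were 9.79% of the 378 miRNAs and 1 of the 4 arms, and at least 2-fold higher were 5.82% and 0 of the 4 arms. The median ratio was -0.0048 for the 4 arms and -0.03 for all 378 miRNAs.

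Scaling decides the direction of the small ratios but not of the 2 larger ones. Over 6 scalings in HT29, miR-425-5p ranged from -2.30 to -1.49, and over those in HCT15 miR-191-3p ranged from -1.54 to -0.97. Under these scalings miR-191-5p ranged from -0.45 to 0.35 in HT29 and from -0.27 to 0.32 in HCT15, so its sign depends on the scaling in both lines. The same holds for miR-425-5p in HCT15 (-0.21 to 0.37), for miR-191-3p in HT29 (-0.73 to 0.02), and for miR-425-3p in HT29 (-0.24 to 0.56) and HCT15 (-0.44 to 0.14). The plot of ratios by arm shows these ranges beside the counting intervals.

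**Figure D2:**
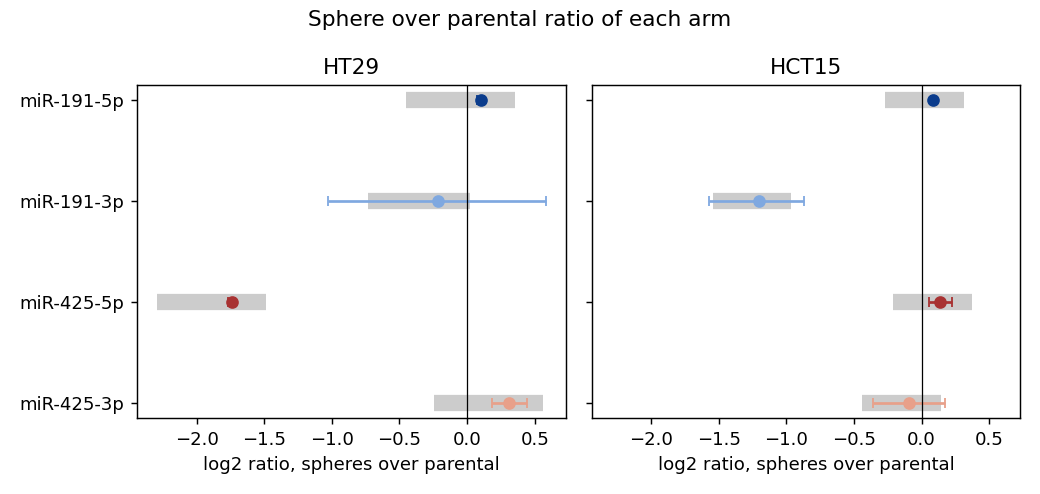
Log2 ratio of spheres over parental cells for each arm, in HT29 (left) and HCT15 (right). Points are the TMM-scaled ratios, thin bars their 95% counting intervals and grey bands the range over the scalings tried. miR-425-5p in HT29 and miR-191-3p in HCT15 are the arms whose band stays clear of 0.

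Across both lines, with the 2 lines as the replicates, no arm of the cluster passed the test. The limma log2 fold change was -0.80 for miR-425-5p (SE 0.61) and -0.68 for miR-191-3p (SE 0.44), each with a Benjamini-Hochberg adjusted p of 0.746. It was 0.09 for miR-191-5p (SE 0.26, limma adjusted p = 0.949) and 0.11 for miR-425-3p (SE 0.43, limma adjusted p = 0.954). Over all 378 miRNAs limma called 0 (0.0%), with 22 (5.82%) at an unadjusted p under 0.05, and none of the 4 arms was among these. The quasi-likelihood test of edgeR likewise called 0, and 18 had an unadjusted p under 0.05. With 1 residual degree of freedom this p measures the spread between 2 lines, moderated over all miRNAs. The ratio of miR-191-3p was below 0 in both lines, but in HT29 its interval includes 0 and its sign depends on the scaling, and that of miR-425-5p was below 0 in HT29.

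The balance of the arms does not depend on scaling between libraries, since both arms are read in the same library. miR-191 was almost entirely 5p. Its 3p arm held 0.0943% of the hairpin's reads in HT29 spheres (exact binomial interval 0.0645 to 0.133) and 0.118% in HT29 parental cells (0.0767 to 0.175). In HCT15 it held 0.0946% in spheres (0.0756 to 0.117) and 0.232% in parental cells (0.208 to 0.257). HCT15 parental cells are the library with the larger 3p share, and the other 3 intervals overlap. As ratios, 5p reads were 1060 times 3p reads in HT29 spheres and 843 times in HT29 parental cells, and 1057 times in HCT15 spheres and 431 times in HCT15 parental cells.

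miR-425 had a larger share of 3p reads than miR-191 in each library. That arm held 7.16% of the hairpin's reads in HT29 spheres (interval 6.81 to 7.54) and 1.82% in HT29 parental cells (1.70 to 1.96). In HCT15 it held 8.93% in spheres (7.72 to 10.3) and 10.3% in parental cells (9.30 to 11.4). HT29 parental cells stand apart, with 53.8 reads of miR-425-5p for each read of miR-425-3p, against 13.0 in HT29 spheres, 10.2 in HCT15 spheres and 8.69 in HCT15 parental cells.

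By name, 505 hairpins had both arms in all 4 files, and 131 of them had a mean of at least 50 CPM over both arms. Where an arm can come from more loci than its partner, as for miR-181a-5p, this ratio mixes loci. Of these 131, 5p exceeded 3p in 59.5% in HT29 spheres, 62.6% in HT29 parental cells, 57.3% in HCT15 spheres and 55.0% in HCT15 parental cells. The arms were over 100-fold apart, toward 5p or 3p, in 31.3% to 39.7% of hairpins, and the 431- to 1060-fold preference of miR-191 lies well past that limit. By 5p over 3p, miR-191 ranked between 11th and 16th of the 131 in the 4 libraries. miR-425 ranked between 45th and 62nd, close to the middle.

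**Figure D3:**
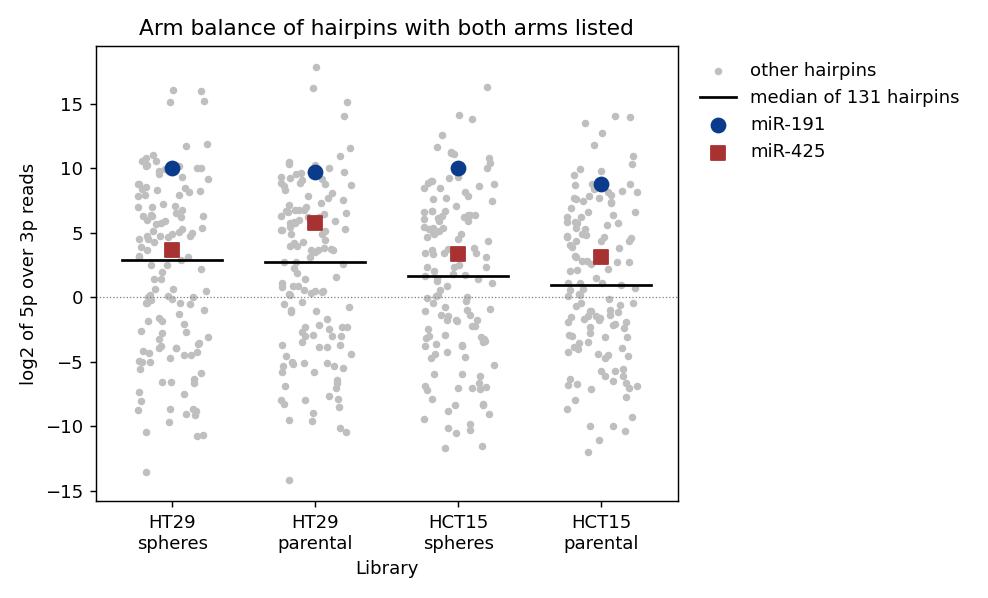
Log2 of 5p over 3p reads for 131 hairpins (grey points, spread sideways for legibility) in the 4 libraries, with the median as a black line. miR-191 (blue) lies near the upper end in each library, at 8.75 to 10.04, and miR-425 (red) is at 5.75 in HT29 parental cells and 3.12 to 3.70 in the other libraries.

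In HT29 spheres the arm balance of miR-425 was displaced toward 3p, and in HCT15 spheres that of miR-191 was displaced toward 5p. For miR-425 in HT29, log2 of 5p over 3p was 3.70 in spheres and 5.75 in parental cells, a change of -2.05 (interval -2.18 to -1.92), or 4.15-fold. For miR-191 in HCT15 it was 10.04 in spheres and 8.75 in parental cells, a change of 1.29 (interval 0.95 to 1.63), or 2.44-fold. The remaining changes were 0.34 for miR-191 in HT29 (interval -0.41 to 1.08) and 0.23 for miR-425 in HCT15 (interval -0.04 to 0.50), both with intervals that include 0. In HT29 the displaced arm was the abundant one, miR-425-5p, while in HCT15 it was the scarce one, miR-191-3p.

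Shifts of this kind were common in both lines. At least 2-fold toward 3p in HT29 spheres were 15.3% of the 131 hairpins, miR-425 among them, and toward 5p 21.4%. In HCT15 spheres 18.3% were at least 2-fold toward 5p, miR-191 among them, and 12.2% toward 3p. The HT29 change of miR-425 was nonetheless near the end of the range, with 3 of 131 hairpins lower and 10 larger in absolute size. For 63 hairpins with at least 20 reads of both arms in every library, 2 were lower and 3 larger in absolute size. The HCT15 change of miR-191 was exceeded in absolute size by 27 of the 131 and by 6 of the 63. The limit of 20 reads was chosen after the data were seen.

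**Figure D4:**
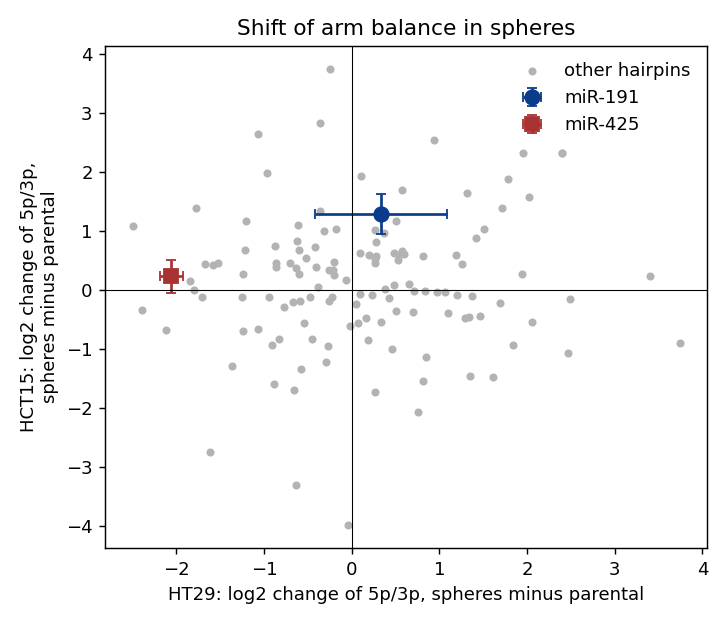
Change of log2 5p over 3p in spheres (spheres minus parental cells) for 131 hairpins, HT29 on the horizontal and HCT15 on the vertical axis, with 95% counting intervals for miR-191 and miR-425. miR-425 lies at the left edge, at -2.05 in HT29 and 0.23 in HCT15, and miR-191 is at 0.34 and 1.29.

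In limma on arm balance across both lines, neither hairpin passed. The change was -0.91 for miR-425 (SE 0.75, limma adjusted p = 0.830) and 0.81 for miR-191 (SE 0.44, limma adjusted p = 0.794). Of 131 hairpins limma called 0 (0.0%), with 9 (6.87%) at an unadjusted p under 0.05, and neither hairpin of the cluster was among these.

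The balance between the hairpins differed by culture in HT29 and by line. In HT29 spheres there were 1.88 reads of miR-191-5p for each read of miR-425-5p (interval 1.85 to 1.92), and in HT29 parental cells 0.525 (interval 0.516 to 0.534). In HCT15 the same ratio was 49.5 in spheres (interval 47.3 to 51.9) and 51.5 in parental cells (interval 49.6 to 53.4). The order of the guides was therefore reversed between the HT29 cultures and kept in HCT15. On the log2 scale the change, spheres minus parental cells, was 1.84 in HT29 (interval 1.81 to 1.88), or 3.59-fold, and -0.06 in HCT15 (interval -0.14 to 0.03).

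Between the 3p arms the change was below 0 in both lines, and its interval excluded 0 in HCT15. The ratio of miR-191-3p to miR-425-3p was 0.0230 in HT29 spheres (interval 0.0157 to 0.0327) and 0.0335 in HT29 parental cells (interval 0.0215 to 0.0499). In HCT15 it was 0.478 in spheres (interval 0.365 to 0.621) and 1.04 in parental cells (interval 0.892 to 1.21). On the log2 scale the HCT15 change was -1.12 (interval -1.55 to -0.69). The HT29 change of -0.54 rests on 32 and 25 reads of miR-191-3p, and its interval of -1.30 to 0.22 includes both 0 and the HCT15 value.

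Other neighbouring hairpins give the scale of such differences. The comparison, added after the data were seen, covers 22 pairs of hairpins on one strand within 10 kb. The 22 include the miR-191/miR-425 pair itself, and some pairs share a hairpin. A hairpin was kept if an arm in the RefSeq table, from 1 locus only, averaged at least 50 CPM. The pairs are neighbours among the hairpins kept, so a hairpin left out can lie between them. miR-425-5p, absent from that table, was added by hand, and other absent names were not. Each hairpin was represented by its most abundant arm that comes from 1 locus only. In 2 of the 22 pairs this was the scarcer arm of a hairpin, miR-92a-1-5p and miR-24-2-5p, because miR-92a-3p and miR-24-3p can come from more than 1 locus. The absolute log2 change of the ratio between these arms had a median of 1.02 in HT29 spheres against parental cells, and 2 of the 22 pairs exceeded the miR-191/miR-425 value of 1.84. They were miR-449b and miR-449c (2.53) and miR-532 and miR-500a (1.85). In HCT15 the median was 0.24, and 20 of the 22 exceeded the cluster's 0.06. In 17 of the 22 pairs the change was larger in HT29 than in HCT15, and no test was made between the lines.

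Between HCT15 parental and HT29 parental cells the ratio of miR-191-5p to miR-425-5p differed by 6.62 on the log2 scale, and the median of the 22 pairs was 2.95. Of the 22, 1 pair exceeded it, miR-20a-5p with miR-92a-1-5p (7.40), one of those that use a scarcer arm. Among the 20 pairs without them, 0 exceeded it and the median was again 2.95. Other pairs made from one transcript also differed, such as miR-200c-3p with miR-141-3p (3.09) and miR-17-5p with miR-18a-5p (4.48). The lines were deposited in different units, and cell line, library preparation and the submitters' processing cannot be told apart here.

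**Figure D5:**
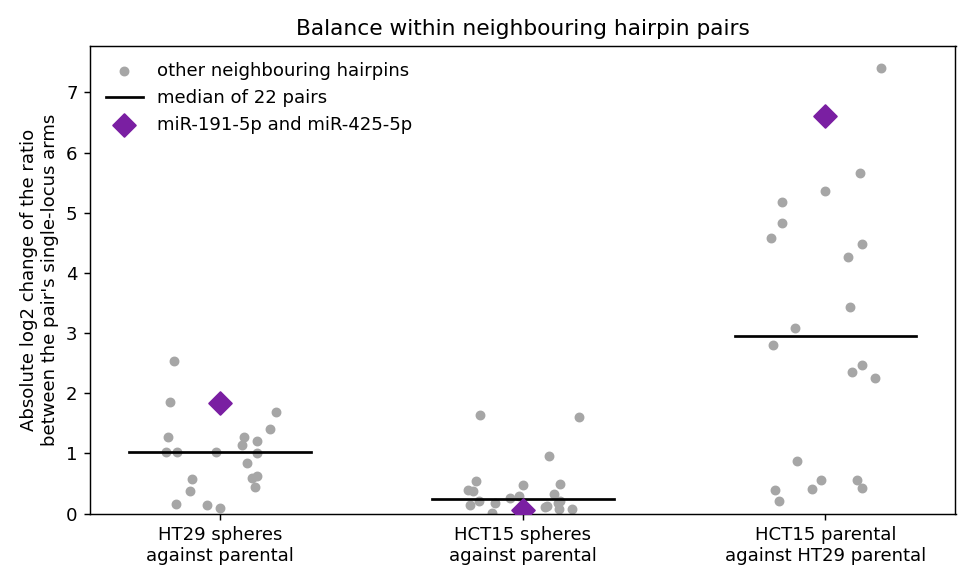
Absolute log2 change of the ratio between the single-locus arms of 22 hairpin pairs, neighbours among the hairpins kept. It is shown for HT29 spheres against parental cells, HCT15 spheres against parental cells, and HCT15 parental against HT29 parental cells. The purple diamond (miR-191-5p and miR-425-5p) is at 1.84, 0.06 and 6.62, against medians (black lines) of 1.02, 0.24 and 2.95.

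Since miR-191-5p and miR-425-5p serve as reference RNAs, they were set beside 8 other miRNAs often used that way. In HT29 the 8 had log2 ratios of spheres over parental cells from -1.81 (miR-16-5p) to 0.32 (miR-93-5p), with a median of -0.27. Of the 8, 1 was at least 2-fold lower, miR-16-5p, at 354 CPM in spheres and 1826 CPM in parental cells. Among all 378 miRNAs that share was 17.5%. The count depends on the scaling, as miR-30c-5p was at -0.97. Before scaling, miR-30c-5p (734 CPM in spheres, 2111 CPM in parental cells) and let-7i-5p (1157 and 2454 CPM) were also over 2-fold lower. miR-191-5p (0.10) lay above 6 of the 8 and miR-425-5p (-1.74) above 1 of them. In HCT15 the 8 ranged from -0.25 (miR-16-5p) to 0.51 (miR-30c-5p), with a median of 0.23, and 0 were 2-fold apart. There miR-191-5p lay above 3 and miR-425-5p above 4 of the 8. Of the 8, 0 passed limma across both lines, but 0 of all 378 miRNAs passed it, so that count is no sign of stability. Their limma adjusted p ran from 0.745 for miR-16-5p to 0.993 for miR-23a-3p. miR-103a-3p had ratios of 0.13 in HT29 and 0.41 in HCT15, and miR-423-5p of -0.14 and -0.11.

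The arms also differed in which other miRNAs they resembled. Likeness was the Euclidean distance between log2(CPM + 1) profiles over the 4 libraries, each centred on its mean, over the 239 miRNAs averaging 50 CPM or more. It is a description over 4 points that share each library's depth. Closest to miR-191-5p were miR-222-5p (distance 0.30), miR-1247-3p (0.32) and let-7b-3p (0.52), all more abundant in HCT15. Closest to miR-425-5p were miR-15b-3p (0.38), miR-326 (0.46) and miR-33b-3p (0.56), all highest in HT29 parental cells. miR-15b-3p, for example, was at 23.9 CPM in HT29 spheres and 159.6 CPM in HT29 parental cells, and at 12.9 and 19.8 CPM in HCT15 spheres and parental cells. The guides of the cluster were 5.81 apart, and 154 miRNAs were closer to miR-191-5p than miR-425-5p was.

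Within 5 Mb of the cluster the RefSeq table places 18 other hairpins, with 19 arms listed in all 4 files. Of these, 3 arms averaged at least 10 CPM. let-7g-5p, of the let-7 family of differentiation-linked miRNAs, was at 5897 CPM in HT29 spheres and 8862 CPM in HT29 parental cells, and at 2976 and 3463 CPM in HCT15 spheres and parental cells. Its log2 ratios were -0.03 in HT29 and 0.13 in HCT15, and those of let-7g-3p were -0.98 and 0.16. miR-135a-5p, whose mature sequence can also come from a locus on another chromosome, had -1.89 in HT29 and 1.58 in HCT15.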

How the data were processed

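Per the labels' protocols, the TruSeq Small RNA kit was used on total RNA. Per the file headers, the authors deposited raw read counts for HT29 and RPKM for HCT15, with miRNA names of miRBase R19. The submitters' processing notes give hg19 as the genome build. How reads were aligned, and how reads of several miRNAs were shared out, is not given in the sources used here.

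HCT15 reads were inferred from the RPKM values. Dividing each value by length / (length + 9) made 69.0% of 477 low values whole in parental cells and 70.6% of 238 in spheres, within 0.01 reads. The 9 was the best of the offsets from 0 to 20 tried. An offset of 0 gave 35.8% in parental cells and 39.1% in spheres, and offsets of 8 and 10 gave 60.8% and 61.6% in parental cells and 54.2% and 55.5% in spheres. One read of a 22-base miRNA was then worth 0.162 in parental cells and 0.263 in spheres, where the commonest value was taken as 2 reads. In parental cells it was taken as 1 read. More reads for that value made slightly more values whole, 72.7% in spheres at 4 reads and 72.1% in parental cells at 2 reads. The inferred HCT15 read totals and counting intervals rest on this choice. Lengths came from RefSeq for 1715 of 2041 names, from whole-read values for 63, and were taken as 22 for 263. The 3 arms with a RefSeq length came out whole. The length of miR-425-5p, 23 bases, was the one that made its HCT15 values whole, so its wholeness is no check.

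limma 3.58.1 in R 4.3.3 was fitted on log2(TMM-scaled CPM + 1), blocked on cell line, to miRNAs that reached 10 CPM in 2 or more libraries. This scale understates changes of scarce miRNAs. A second limma fit used log2 of 5p over 3p reads with 0.5 added to each arm. Benjamini-Hochberg adjustment ran over all miRNAs or hairpins tested, and 0.05 was the threshold. Ratios within a line used a prior count of 2 and exact conditional binomial intervals. Intervals of changes in arm ratio or hairpin ratio are normal intervals on log counts. Both fits were tested on simulated data in which each change was the same in both lines. Those tests do not cover a change that differs between the lines. The alternatives limma-voom, DESeq2 1.42.0 and edgeR 4.0.16 used HT29 counts and rounded HCT15 reads. Other values came from Python 3.11.15 (scipy 1.17.1, pandas 2.3.3, numpy 2.4.6).

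All arms were named. The rules also named 8 reference miRNAs, the 3 miRNAs most alike each guide, abundance neighbours, arms within 5 Mb at 10 CPM or more, and marker lists. Members and lists were chosen with earlier results of these data known.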

Additional observations from a re-analysis of the deposited data

Results flagged for a closer look

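Each result here had opposite signs in HT29 and HCT15, with 1 library per line and culture, and the difference between the lines was not tested. The log2 ratio of spheres over parental cells for miR-425-5p was -1.74 in HT29 and 0.14 in HCT15, where its sign depends on the scaling. That of miR-425-3p was 0.31 in HT29 and -0.09 in HCT15, and the sign depends on the scaling in both lines. The change of the miR-425 5p/3p ratio was -2.05 in HT29 and 0.23 in HCT15, the second with an interval that includes 0. The change of the ratio of miR-191-5p to miR-425-5p was 1.84 in HT29 and -0.06 in HCT15, again the second with an interval that includes 0.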

How the results depend on the processing

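Of 157 alternatives over 32 results, 125 kept the main direction and call or stayed within the counting interval. Among the 125 are alternatives that could hardly move a ratio, named below. Across lines, limma called 6 miRNAs without the 10 most abundant miRNAs in the scaling, 6 without a filter on low values, DESeq2 5 and limma-voom 3, against 0, and none was an arm of the cluster. Over all settings the adjusted p of the arms ranged from 0.423 to 0.9998. The limma fold change of miR-191-5p was -0.36 under total-count scaling and -0.16 when that scaling left out the 10 most abundant miRNAs, and that of miR-425-3p -0.34 and -0.14, each the reverse of the main sign. In the arm fit, a prior of 2 reads gave 2 calls against 0, neither in the cluster.

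Ratios within a line moved with the scaling. With total counts, miR-191-5p was at -0.45 in HT29 and -0.27 in HCT15, miR-425-5p at -2.30 and -0.21, and miR-425-3p at -0.24 in HT29. Without the 10 most abundant, miR-191-5p was at -0.15 and -0.16 and miR-425-5p at -1.99 and -0.10. With DESeq2 size factors they were at 0.16 and 0.30, and at -1.68 and 0.36. With the upper quartile they were at 0.35 and 0.32, and at -1.49 and 0.37. With TMM on HT29 alone they were at 0.31 and -1.53. These scalings shift all ratios of a line together. The prior counts kept each ratio within its counting interval. So did 4 reads for the commonest HCT15 sphere value and no length factor, the last chosen after the data were seen. The first rescales a miRNA and its library together, and the length factor is the same in both cultures. Neither could therefore move a ratio within HCT15 by much. Arm ratios kept their values within counting error under each alternative tried. The deposited HCT15 values could hardly move them, as the arms were taken as 22 or 23 bases long. For the miR-191-5p to miR-425-5p ratio the deposited HCT15 values were the only alternative. They could not move it, as both arms were taken as 23 bases, and no alternative was tried in HT29. The limma fits pair spheres with parental cells of each line, and without the line as a block limma called 0 miRNAs and 0 hairpins, with 0 of each at an unadjusted p under 0.05. The labels give no replicate numbers, and leaving out a library leaves a line without its contrast. Depth limits miR-191-3p most, at 32 and 25 reads in HT29 spheres and parental cells.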
